A study of Mus musculus with 12 samples.

Results

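The genes described here are the core circadian clock genes Arntl (also called Bmal1), Clock, Per1, Per2, Per3, Cry1, Cry2, Nr1d1 and Nr1d2 and the clock output gene Dbp, in subcutaneous white fat (scWAT) and brown fat (BAT). All probes of these 10 genes were taken from the scanner files by matching the probes' RefSeq accessions to gene symbols, which gave 11 of the 55681 probes on the array, with 2 probes for Dbp and 1 for each other gene. Total RNA was hybridised to 12 single-colour Agilent mouse arrays, 3 for each of 4 groups, namely scWAT of wild-type (WT) littermates, scWAT of Lr11-/- mice, BAT of WT mice and BAT of Lr11-/- mice. All mice were C57Bl6/J males, aged 12 weeks and fed a high-fat diet (HFD) with 60% of calories from fat, and Lr11-/- mice lack LR11, a sorting receptor encoded by Sorl1. The labels give the diet both as 4 weeks long and as started at weaning, so its length is open. Mice were kept under a 12 h light and 12 h dark cycle, and the hour at which fat was collected is not given in the sources used here. The labels do not say whether scWAT and BAT came from the same mice, and replicate numbers are names only. Replicate 1 of each group belonged to an earlier array series, and replicates 2 and 3 to a later one. The earlier scWAT arrays were on slide 1, the earlier BAT arrays on slide 3 and all later arrays on slide 2, as numbered here. Within the earlier series depot and slide therefore cannot be told apart.

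The clock is a feedback loop that most cells run with a period of about a day. ARNTL and CLOCK form a dimer that binds E-box DNA and switches on the Per and Cry genes, whose proteins return to the nucleus and block the dimer. NR1D1 and NR1D2 (REV-ERB alpha and beta) repress Arntl through ROR elements, while DBP, itself driven by E-boxes, activates genes with D-boxes in competition with the repressor NFIL3. In fat as in liver, Arntl and Dbp are known to peak at about opposite times of day, so that the levels of these genes depend on the hour of sampling.

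Promoter windows are shown because they hold the DNA elements through which these genes are known to act on each other. RefSeq windows (assembly GRCm38.p6) from 250 bases before to 50 bases after a gene's start were given for 9 of the 10 genes, 13 windows in all, with none for Per2. They were searched on both strands for the E-box CACGTG, the E-prime-box CACGTT, the D-box TTATGNAA, the cyclic AMP response element TGACGTCA and the ROR or REV-ERB core TAGGTCA or TGGGTCA, and matches to different elements did not overlap in these windows. The windows below are those with a match, written 5′ to 3′ with the match in capitals.
Cry1, chr10:85185005-85185304, minus strand: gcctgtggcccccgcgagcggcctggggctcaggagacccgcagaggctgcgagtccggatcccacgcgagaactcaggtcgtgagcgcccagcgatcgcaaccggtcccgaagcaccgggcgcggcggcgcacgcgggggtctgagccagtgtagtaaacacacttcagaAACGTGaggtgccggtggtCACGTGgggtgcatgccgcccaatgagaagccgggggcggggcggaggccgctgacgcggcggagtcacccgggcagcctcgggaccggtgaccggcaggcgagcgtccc
Per1, chr11:69098699-69098998, plus strand: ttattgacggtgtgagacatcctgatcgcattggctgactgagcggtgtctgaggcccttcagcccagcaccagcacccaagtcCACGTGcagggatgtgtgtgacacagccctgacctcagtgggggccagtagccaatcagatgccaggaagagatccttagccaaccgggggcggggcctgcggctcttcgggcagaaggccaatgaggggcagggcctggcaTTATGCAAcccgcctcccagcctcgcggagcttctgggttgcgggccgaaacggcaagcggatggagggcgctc
Per3, chr4:151044616-151044915, minus strand: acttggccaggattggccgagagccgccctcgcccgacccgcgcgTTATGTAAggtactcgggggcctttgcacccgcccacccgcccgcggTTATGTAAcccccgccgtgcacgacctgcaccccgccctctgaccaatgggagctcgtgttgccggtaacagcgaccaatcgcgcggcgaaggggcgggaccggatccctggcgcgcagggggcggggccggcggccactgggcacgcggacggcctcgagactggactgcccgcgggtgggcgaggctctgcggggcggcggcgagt
Nr1d1, chr11:98775328-98775627, minus strand: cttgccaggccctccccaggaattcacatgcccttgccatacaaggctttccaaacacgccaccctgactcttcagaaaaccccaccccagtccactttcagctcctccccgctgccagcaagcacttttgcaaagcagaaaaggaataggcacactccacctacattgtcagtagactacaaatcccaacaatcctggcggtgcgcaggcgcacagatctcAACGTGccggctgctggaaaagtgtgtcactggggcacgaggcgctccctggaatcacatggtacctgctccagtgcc
Cry2, chr2:92434020-92434319, minus strand: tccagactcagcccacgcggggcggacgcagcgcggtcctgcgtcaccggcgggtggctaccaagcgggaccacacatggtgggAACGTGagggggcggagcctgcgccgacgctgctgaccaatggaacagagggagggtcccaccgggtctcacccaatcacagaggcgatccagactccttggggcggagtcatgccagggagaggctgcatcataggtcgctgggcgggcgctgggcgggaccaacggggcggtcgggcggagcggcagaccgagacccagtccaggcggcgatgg
Arntl, chr7:113207261-113207560, plus strand: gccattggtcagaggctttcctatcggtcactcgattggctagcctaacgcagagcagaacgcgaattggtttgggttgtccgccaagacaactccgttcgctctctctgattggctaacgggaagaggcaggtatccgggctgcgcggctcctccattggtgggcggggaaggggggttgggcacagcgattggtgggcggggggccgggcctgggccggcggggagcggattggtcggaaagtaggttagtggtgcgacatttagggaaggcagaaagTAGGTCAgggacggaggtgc

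Cry1 held an E-box and an E-prime-box, Per1 held an E-box and a D-box, and Per3 held 2 D-boxes. Nr1d1 and Cry2 each held an E-prime-box, and Arntl held a ROR or REV-ERB core in 1 of its 2 windows. Of the 13 windows, the E-box was thus in 2, the E-prime-box in 3, the D-box in 2 and the ROR or REV-ERB core in 1. For each element these windows were of different genes, and 0 windows held the cyclic AMP response element. Of all 32851 windows in the table, 7.15% held the E-box, 4.68% the E-prime-box, 3.38% the D-box, 6.45% the ROR or REV-ERB core and 1.79% the cyclic AMP response element. The windows of Clock, Nr1d2 and Dbp had no match to these letters.

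The authors deposited spot intensities that were background-subtracted within each array. A level is given here as the log2 intensity minus that of the array's 75th percentile, so that 0 marks the brightness of that percentile and 1 unit is a doubling. Levels are compared between arrays for the same probe only, since probes of different genes differ in brightness per molecule. Arrays had between 32377 and 37002 spots well above background and 0 saturated spots, and 32121 probes were tested, all 11 clock probes among them. Sorl1, the deleted gene, lay between 0.11 and 1.21 on the 6 WT arrays and between -3.93 and -2.45 on the 6 Lr11-/- arrays, which did not overlap. The labelled depots were checked against marker genes, whose levels are given as the log2 of their summed scaled intensity. For 8 brown fat markers this was 11.35 to 11.78 on the BAT arrays, 1.94 to 8.05 in WT scWAT and 8.64 to 11.82 in Lr11-/- scWAT. For 9 skeletal muscle markers it was 9.58 to 12.04 on 5 arrays (WT scWAT replicate 3, Lr11-/- scWAT replicate 1, WT BAT replicates 1 and 3, and Lr11-/- BAT replicate 1) and 0.27 to 2.37 on the other 7, with Ckm, Mylpf and Actn3 well above background on 5 arrays each. For 5 epithelial markers it was 3.07 in WT scWAT replicate 3 and 5.38 in Lr11-/- scWAT replicate 1, against -1.33 to -0.30 elsewhere. WT scWAT replicate 2 stood apart in other ways, with 5 adipocyte markers at 8.62 (10.24 to 10.94 on the other arrays), 6 subcutaneous white fat markers at 3.45 (3.72 to 8.47), 4 macrophage markers at 7.04 (4.02 to 5.77) and the brown fat markers at 1.94, their lowest. In tissue RNA, fewer cells of a type and less RNA per cell cannot be told apart.

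All 10 clock genes were expressed in both depots of both genotypes. The Cry1 probe was not well above background on WT scWAT replicate 2, and the other 10 probes were on each array. What stood out was how far arrays of the same group lay apart. The SD within groups had a median of 0.76 over the 10 genes against 0.43 over all tested probes. It was above that overall median for 10 of 10 genes and above the overall upper quartile of 0.64 for 7 of 10. It ran from 0.48 for Clock and 0.57 for Nr1d2 to 0.85 for Nr1d1 and 0.92 for Dbp, the latter at the 88.8th percentile of tested probes.

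**Figure D1:**
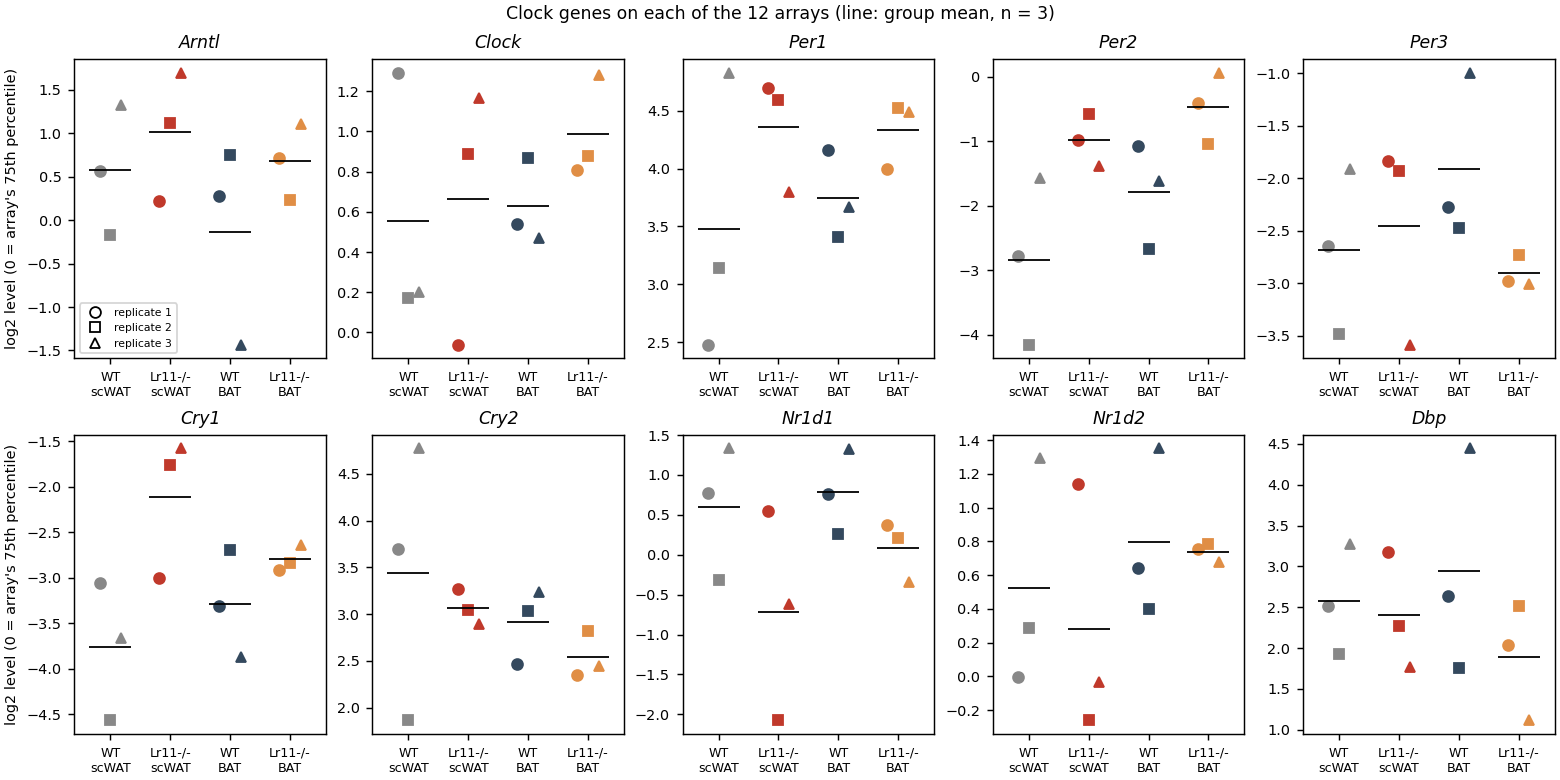
Log2 level of each clock gene on each of the 12 arrays, relative to the array's 75th percentile, by group, with circles, squares and triangles for replicates 1, 2 and 3 and a line for the mean of 3 arrays. Each panel has its own vertical scale. WT BAT replicate 3 holds the lowest Arntl value (-1.43) and the highest Dbp value (4.45) of the 12.

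The first question was whether loss of LR11 changed the clock genes in either depot. By limma, 0 of the 10 genes differed between Lr11-/- and WT scWAT at an adjusted p under 0.05, and 2 (Cry1 and Per2) did at an unadjusted p under 0.05. Over all tested probes 5.27% were called in scWAT and 27.6% had an unadjusted p under 0.05, so the share of clock genes was not above that of all probes. In BAT 0 of 10 were called and 0 had an unadjusted p under 0.05 by limma, against 0.0187% of all probes called and 2.12% at an unadjusted p under 0.05. The direction was mixed, with 6 genes higher and 4 lower in Lr11-/- scWAT and 5 of each in BAT. The median absolute difference of the 10 genes was 0.41 in scWAT, against 0.47 over all probes, and 0.65 in BAT, against 0.16.

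Arntl, the activator without which the loop stops, was at 0.57, -0.17 and 1.32 on the WT scWAT arrays, against 0.22, 1.12 and 1.70 in the Lr11-/- group. The BAT arrays read 0.27, 0.75 and -1.43 for WT, against 0.72, 0.23 and 1.1 for Lr11-/- mice. The genotypes overlapped in both depots, with a difference, Lr11-/- minus WT, of 0.44 (SE 0.59, limma adjusted p = 0.664) in scWAT and 0.82 (SE 0.59, limma adjusted p = 1.0) in BAT. Its partner Clock ranged from 0.17 to 1.29 in WT scWAT, from -0.06 to 1.16 in Lr11-/- scWAT, from 0.47 to 0.87 in WT BAT and from 0.81 to 1.28 in Lr11-/- BAT. Clock differed between genotypes by 0.11 (SE 0.38) in scWAT and 0.36 (SE 0.38) in BAT, within the spread of the arrays.

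Per2, a repressor of the ARNTL and CLOCK dimer, was the gene whose genotypes stood apart in both depots. Its level was -2.79, -4.16 and -1.57 on the WT scWAT arrays, against -0.99, -0.58 and -1.39 in the Lr11-/- group. The BAT arrays read -1.07, -2.68 and -1.62 for WT, against -0.41, -1.04 and 0.06 for Lr11-/- mice. Every Lr11-/- array lay above every WT array of the same depot, by a narrow margin in BAT (-1.04 against -1.07). The difference was 1.85 (SE 0.62, 95% interval 0.49 to 3.21, 3.61-fold, limma adjusted p = 0.0915) in scWAT and 1.33 (SE 0.62, interval -0.03 to 2.69, limma adjusted p = 1.0) in BAT. With normexp background correction of the median signals it was smaller, at 1.20 in scWAT and 1.01 in BAT. Within the earlier array series, 1 array a group, the difference was 1.80 in scWAT and 0.66 in BAT, and within the later series 1.88 and 1.66. In WT scWAT the array highest in Per2, replicate 3, was also the one high in muscle and epithelial markers. Without it the scWAT difference was 2.49 (limma adjusted p = 0.0210, with 4617 of all 32121 probes called). Without WT scWAT replicate 2 the scWAT difference was 1.19 (limma adjusted p = 0.251). Without all 5 arrays high in muscle genes the difference was 2.49 in scWAT and 2.19 in BAT, where replicate 2 was the only WT BAT array left.

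Cry1, the second repressor arm, had the smallest p of the 10 genes in scWAT. It was at -3.05, -4.57 and -3.66 on the WT scWAT arrays, close to background, against -3.00, -1.75 and -1.58 in the Lr11-/- group. The BAT arrays read -3.30, -2.70 and -3.87 for WT, against -2.92, -2.83 and -2.64 for Lr11-/- mice. The genotypes did not overlap in scWAT, where the gap between the closest arrays was small (-3.00 against -3.05), and they overlapped in BAT. The difference was 1.65 (SE 0.47, 95% interval 0.62 to 2.68, 3.14-fold, limma adjusted p = 0.0629) in scWAT and 0.50 (SE 0.47, limma adjusted p = 1.0) in BAT. Its size depended on background handling, and with normexp background correction of the median signals it was 0.85 in scWAT. Within the earlier array series the Cry1 difference in scWAT was 0.05, and within the later series it was 2.45 (limma adjusted p = 0.0170, with 7259 of all 32121 probes called). It passed the threshold without WT scWAT replicate 1 (2.0, limma adjusted p = 0.0310, with 4409 of all 32121 probes called) and without Lr11-/- scWAT replicate 1 (2.10, limma adjusted p = 0.0112, with 6371 called), and both of these arrays are of the earlier series. Without WT scWAT replicate 2, the dimmest for Cry1, it was 1.25 (limma adjusted p = 0.178).

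The other Per and Cry genes overlapped between genotypes in scWAT. Per1 spanned 2.48 to 4.83 on the WT scWAT arrays, against 3.8 to 4.69 on the Lr11-/- ones, with a difference of 0.88 (SE 0.52, limma adjusted p = 0.294). The highest WT array was again replicate 3, and without it the difference was 1.55 (limma adjusted p = 0.0232, with 4617 of all 32121 probes called). Without WT scWAT replicate 1, the lowest, it was 0.38 (limma adjusted p = 0.605), and it was 2.22 within the earlier array series and 0.21 within the later one. In BAT Per1 spanned 3.41 to 4.16 for WT, against 4.00 to 4.52 for Lr11-/- mice, a difference of 0.59 (SE 0.52). Per3, a period gene not needed for the loop to run, was the 1 gene with every Lr11-/- array below every WT array in BAT. It was at -2.27, -2.48 and -0.99 in WT BAT and at -2.98, -2.73 and -3.01 in Lr11-/- BAT, a difference of -0.99 (SE 0.55, limma adjusted p = 1.0), or -0.53 without WT BAT replicate 3. The scWAT arrays read -2.65, -3.48 and -1.91 for WT, against -1.83, -1.93 and -3.59 for Lr11-/- mice. These overlapped, with a difference of 0.23 (SE 0.55). Cry2 was lower on average in Lr11-/- mice, with a difference of -0.38 (SE 0.57) in scWAT and -0.37 (SE 0.57) in BAT, with WT scWAT arrays as far apart as 1.86 and 4.77. In all, 2 genes did not overlap between genotypes in scWAT (Cry1 and Per2, both higher in Lr11-/-) and 2 in BAT (Per2 higher, Per3 lower), against 20.4% of all probes in scWAT and 12% in BAT.

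Nr1d1, which encodes the repressor of Arntl, was at 0.77, -0.32 and 1.33 on the WT scWAT arrays, against 0.55, -2.08 and -0.61 in the Lr11-/- group. The BAT arrays read 0.76, 0.26 and 1.33 for WT, against 0.37, 0.21 and -0.34 for Lr11-/- mice. Levels overlapped in both depots and were lower on average in Lr11-/- mice, with a difference of -1.31 (SE 0.62, limma adjusted p = 0.197) in scWAT and -0.70 (SE 0.62, limma adjusted p = 1.0) in BAT. Without Lr11-/- scWAT replicate 1, the array high in muscle and epithelial markers, the scWAT difference was -1.94 (limma adjusted p = 0.0388, with 6371 of all 32121 probes called). Without Lr11-/- scWAT replicate 2, the lowest, it was -0.63 (limma adjusted p = 0.548), and it was -0.22 within the earlier array series and -1.85 within the later one. The related Nr1d2 differed by -0.24 (SE 0.43) in scWAT and -0.06 (SE 0.43) in BAT. Its 3 arrays of Lr11-/- BAT lay between 0.68 and 0.78, while those of WT scWAT spread from 0.00 to 1.29.

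Dbp, the output gene that follows the loop with a wide daily swing in many tissues, was at 2.51, 1.92 and 3.28 on the WT scWAT arrays, against 3.17, 2.27 and 1.77 in the Lr11-/- group. The BAT arrays read 2.64, 1.75 and 4.45 for WT, against 2.04, 2.52 and 1.11 for Lr11-/- mice. The difference was -0.17 (SE 0.67, limma adjusted p = 0.893) in scWAT and -1.06 (SE 0.67, limma adjusted p = 1.0) in BAT, with overlap in both. Without WT BAT replicate 3 the BAT difference was -0.31. The other Dbp probe differed by -0.52 (SE 0.77) in scWAT and -1.34 (SE 0.77) in BAT, in the same directions.

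**Figure D2:**
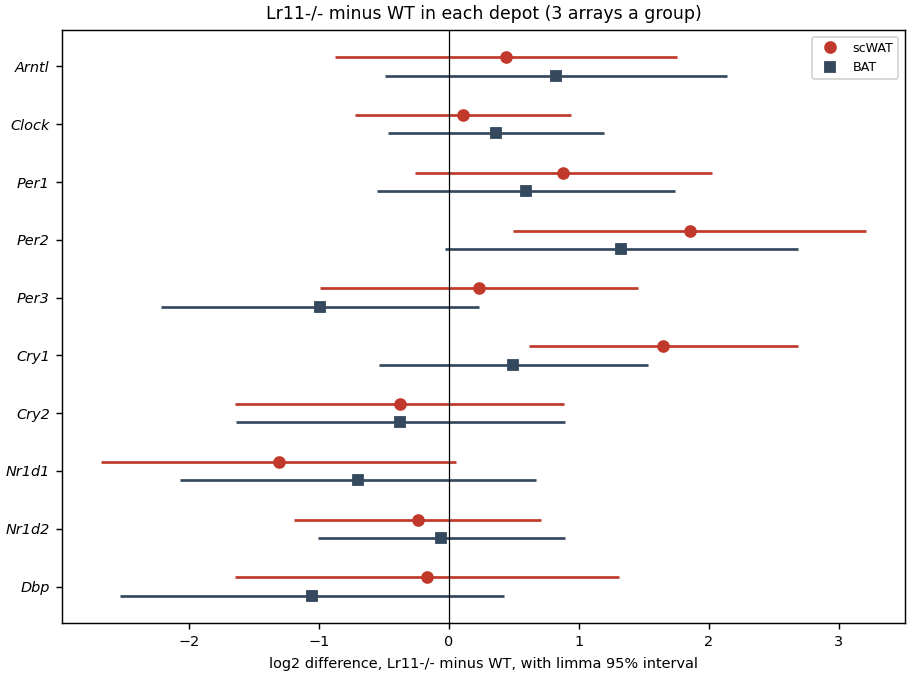
Log2 difference, Lr11-/- minus WT, of each clock gene in scWAT (circles) and BAT (squares), with limma's unadjusted 95% interval, 3 arrays a group. The intervals of Per2 (0.49 to 3.21) and Cry1 (0.62 to 2.68) in scWAT lie above 0, and the other 18 reach 0.

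Whether the genotype difference itself differed between depots was tested by the interaction. By limma 0 of the 10 genes and 0% of all probes were called, with 0 of the 10 genes at an unadjusted p under 0.05. The widest gaps between depots were those of Per3 (1.22, SE 0.78, 95% interval -0.51 to 2.96) and Cry1 (1.15, SE 0.66, interval -0.31 to 2.61), both scWAT minus BAT, and neither excludes 0. As the Per2 differences had the same sign in both depots, the average of both genotype differences was added after these values were seen. It was 1.59 for Per2 (SE 0.43, limma adjusted p = 0.153), 1.07 for Cry1 (SE 0.33, limma adjusted p = 0.164) and -1.01 for Nr1d1 (SE 0.44, limma adjusted p = 0.249). By limma 0 of 10 genes were called on average, 3 had an unadjusted p under 0.05, and of all probes 0.121% were called and 18.9% had an unadjusted p under 0.05. Without WT scWAT replicate 3 the average was 1.91 for Per2 (limma adjusted p = 0.0299), and 2 of the 10 genes were called. Without Lr11-/- scWAT replicate 1 it was 1.59 for Per2 (limma adjusted p = 0.0643), and 1 gene other than Per2 was called. The share of all probes called in these refits is not given here, so these counts cannot be set against it.

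The next question was whether the depots differed. In WT mice 0 of the 10 genes were called between BAT and scWAT by limma, with 0 at an unadjusted p under 0.05, where 24.8% of all probes were called and 40.1% had an unadjusted p under 0.05. The WT groups overlapped for 10 of the 10 genes, while 40.2% of all probes did not overlap. In Lr11-/- mice 0 of the 10 genes were called by limma and 0 had an unadjusted p under 0.05, against 0.0405% of all probes called and 9% at an unadjusted p under 0.05. Here 1 gene, Cry2, did not overlap, against 23.2% of all probes. The median absolute difference between depots was 0.42 for the clock genes and 0.61 for all probes in WT mice, and 0.49 and 0.30 in Lr11-/- mice.

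**Figure D3:**
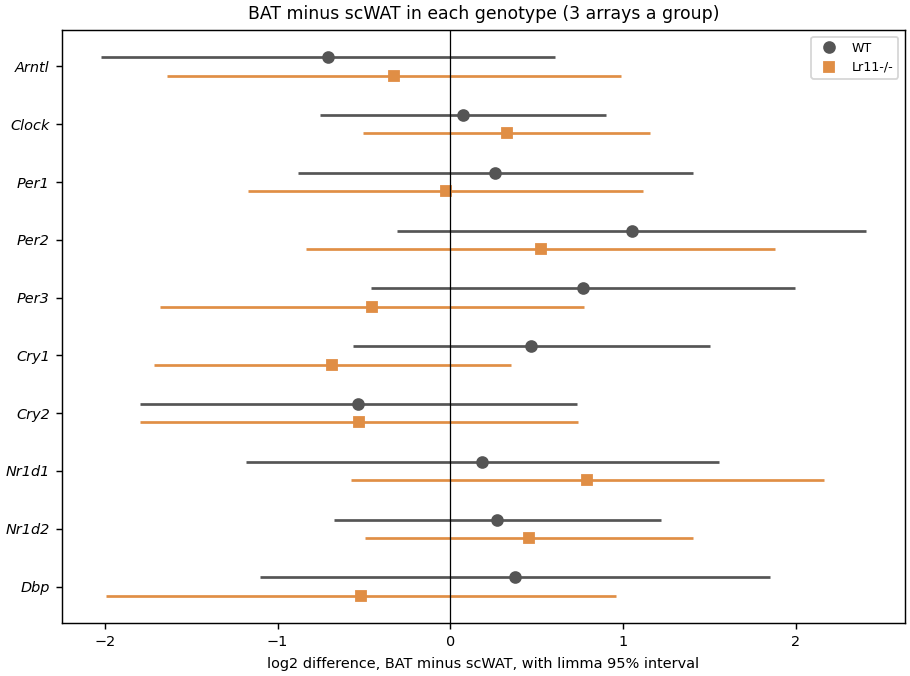
Log2 difference, BAT minus scWAT, of each clock gene in WT (circles) and Lr11-/- mice (squares), with limma's unadjusted 95% interval, 3 arrays a group. Every one of the 20 intervals reaches 0, and the largest difference is that of Per2 in WT mice (1.05).

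Of the depot differences in WT mice, that of Per2 was the largest, at 1.05 higher in BAT (SE 0.62, 95% interval -0.31 to 2.41, limma adjusted p = 0.226). Without WT scWAT replicate 3 it was 1.68 (limma adjusted p = 0.0485, with 8932 of all 32121 probes called), and without replicate 2 it was 0.39. Per3 was 0.77 higher (SE 0.55) and Arntl was at -0.71 in BAT relative to scWAT (SE 0.59, 95% interval -2.02 to 0.61, limma adjusted p = 0.398). The Arntl value rested on WT BAT replicate 3 (-1.43), the other 2 WT BAT arrays being at 0.27 and 0.75, within the range of WT scWAT, and without it the difference was -0.06. Cry2 was at -0.53 in BAT relative to scWAT in WT (SE 0.57, limma adjusted p = 0.516) and at -0.53 in Lr11-/- mice (SE 0.57, limma adjusted p = 0.793). In Lr11-/- mice Cry2 lay between 2.34 and 2.82 in BAT and between 2.89 and 3.27 in scWAT. In WT mice the Cry2 value turned on single scWAT arrays, being -1.32 (limma adjusted p = 0.0330, with 5286 of all 32121 probes called) without replicate 2 and 0.13 without replicate 3. The intervals of these differences were wide, so similar levels in both depots were not shown either. With a slide block the WT depot difference was 0.87 for Per2 (limma adjusted p = 0.436) and -1.02 for Arntl (limma adjusted p = 0.331).

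By group mean, Per2 was ordered from WT scWAT (-2.84, SD 1.30) through WT BAT (-1.79, SD 0.82) and Lr11-/- scWAT (-0.99, SD 0.41) to Lr11-/- BAT (-0.46, SD 0.55). Cry1 ran from WT scWAT (-3.76, SD 0.76) through WT BAT (-3.29, SD 0.59) and Lr11-/- BAT (-2.80, SD 0.14) to Lr11-/- scWAT (-2.11, SD 0.78). For Arntl the order was WT BAT (-0.14, SD 1.15), WT scWAT (0.57, SD 0.75), Lr11-/- BAT (0.68, SD 0.44) and Lr11-/- scWAT (1.01, SD 0.75). In each of these orders, neighbouring groups overlapped. For Dbp the order was Lr11-/- BAT (1.89, SD 0.71), Lr11-/- scWAT (2.41, SD 0.71), WT scWAT (2.57, SD 0.68) and WT BAT (2.95, SD 1.37), again with overlap between neighbours.

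Since arrays of the same group lay far apart, the genes were next compared array by array, each level being taken relative to the mean of its own group. WT BAT replicate 3 lay below its group mean in Arntl by -1.30 and in Cry1 by -0.58, and above it in Dbp by 1.5, Per3 by 0.92, Nr1d1 by 0.55 and Nr1d2 by 0.55. WT BAT replicate 2 had the opposite signs for these 6 genes, with Arntl at 0.89 and Dbp at -1.19. Deviations from a mean of 3 arrays sum to 0 within a group, so some opposition between its arrays is built in. WT scWAT replicate 3 lay above its group mean in 9 of the 10 genes, Arntl and Dbp alike, and replicate 2 below it in 10 of 10. The mean absolute deviation over the 10 genes ran from 0.15 in Lr11-/- BAT replicate 1 to 0.81 in WT scWAT replicate 3. WT scWAT replicate 3 and WT BAT replicate 3 were both among the 5 arrays high in muscle markers, while WT scWAT replicate 2 and WT BAT replicate 2 were not. WT scWAT replicate 2 was the array lowest in adipocyte and highest in macrophage markers, and it held the lowest Per2 (-4.16) and Cry1 (-4.57) levels of the 12. The part of tissue make-up in these deviations was not tested.

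**Figure D4:**
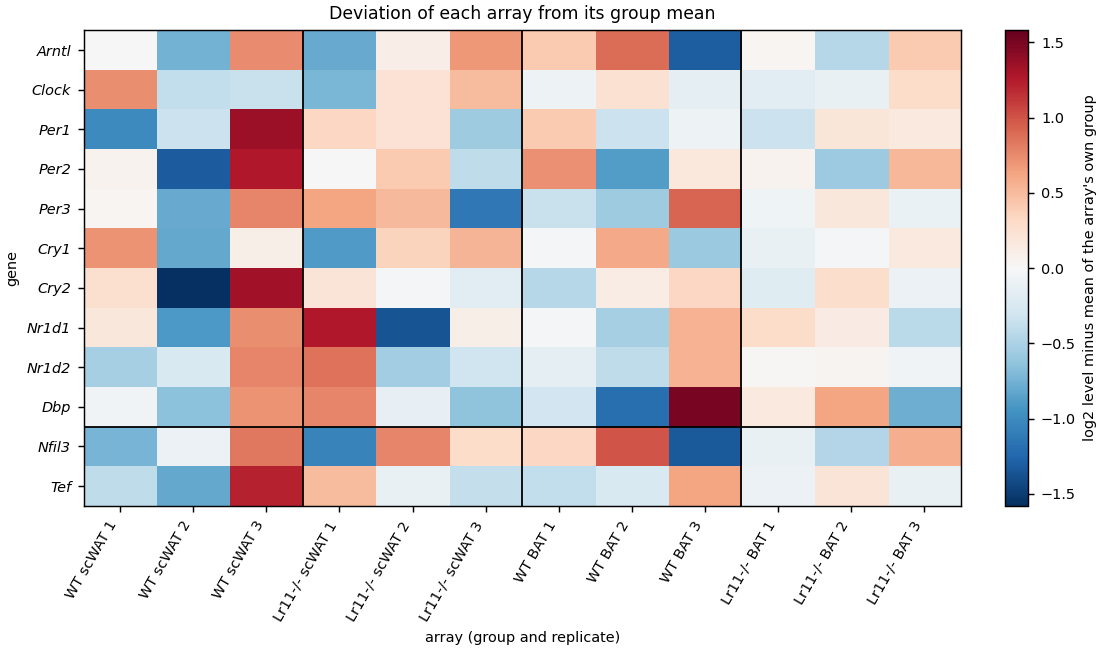
Log2 level minus the mean of the array's own group for the 10 clock genes (rows above the line) and for Nfil3 and Tef (below it), by array, with red above and blue below the group mean. WT BAT replicate 3 is blue in Arntl (-1.30) and Nfil3 and red in Dbp (1.5), and WT scWAT replicate 3 is red in 9 of the 10 clock genes.

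Arntl was set against each of the other 9 genes over the 12 group-centred values, with a two-sided exact permutation test that reorders arrays within groups (1296 reorderings, smallest possible p 0.000772) and adjustment over the 9 relations. None of the 9 relations passed an adjusted p of 0.05 over 12 arrays, for r or for rho. Cry1 followed Arntl most closely (r = 0.78, exact permutation p = 0.0285, adjusted p = 0.257, rho = 0.70, exact permutation p = 0.0571, adjusted p = 0.514). Dbp ran opposite to it (r = -0.64, exact permutation p = 0.12, adjusted p = 0.438, rho = -0.58, exact permutation p = 0.132, adjusted p = 0.525). Clock had r = 0.48 and rho = 0.47, Per3 r = -0.41 and rho = -0.41, Nr1d2 r = -0.38 and rho = -0.34, and the other 4 genes had r between -0.23 and 0.27, with exact permutation p of 0.146 or more for these 7. Without the 2 arrays farthest from the median of Arntl, WT BAT replicate 3 and Lr11-/- scWAT replicate 1, r was 0.02 for Dbp and 0.60 for Cry1. Leaving out 1 array at a time, r for Dbp ran from -0.89 without WT scWAT replicate 3 to -0.29 without WT BAT replicate 3. It was -0.57 without Lr11-/- scWAT replicate 1, so the Dbp value depended on which arrays were kept.

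The depots differed in these values. Over the 6 BAT arrays Arntl had r = -0.98 and rho = -1.0 with Dbp, r = -0.98 and rho = -0.94 with Per3, r = -0.96 and rho = -0.94 with Nr1d2 and r = 0.91 and rho = 0.94 with Cry1. The unadjusted exact permutation p was 0.0278 for Dbp, Per3 and Nr1d2, which is the smallest that 36 reorderings can give, and 0.111 for Cry1. Over the 6 scWAT arrays r was -0.02 with Dbp, -0.02 with Per3, -0.09 with Nr1d2 and 0.77 with Cry1, and whether the depots' relations differ was not tested. Without WT scWAT replicate 3, in which Arntl and Dbp were both high, 4 of the 9 relations passed over 11 arrays. These were Cry1 (r = 0.82, exact permutation adjusted p = 0.0417), Dbp (r = -0.89, exact permutation adjusted p = 0.0469), Nr1d2 (r = -0.83, exact permutation adjusted p = 0.0469) and Clock (r = 0.70, exact permutation adjusted p = 0.0469). Without WT scWAT replicate 1 the Cry1 relation alone passed by r (r = 0.89, exact permutation adjusted p = 0.0417). By rho, Clock passed there as well (rho = 0.76, exact permutation adjusted p = 0.0208). No relation passed when any other array was left out.

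**Figure D5:**
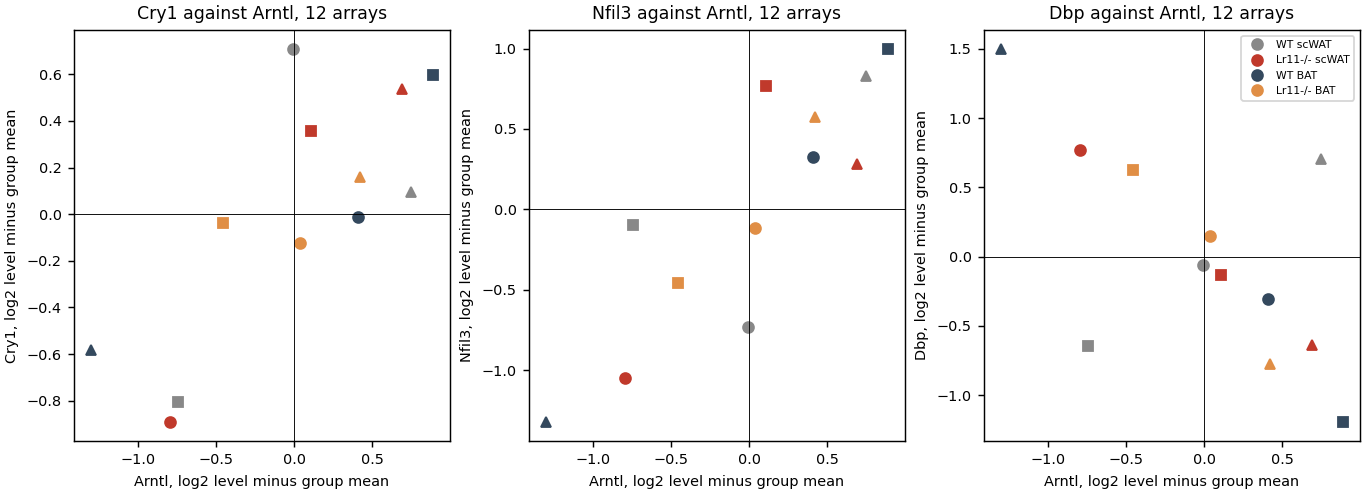
Cry1, Nfil3 and Dbp against Arntl, each as log2 level minus the mean of the array's own group, on 12 arrays coloured by group, with circles, squares and triangles for replicates 1, 2 and 3. Cry1 (r = 0.78) and Nfil3 (r = 0.86) rise with Arntl, and Dbp falls with it (r = -0.64), with WT scWAT replicates 2 and 3 off that course.

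Likeness to Arntl and to Dbp over the 12 group-centred values was also ranked over 14705 other named genes, 1 probe a gene, as a description of arrays that share slides and tissue make-up. Outside the 10 genes, those most like Arntl were Pcmt1 (r = 0.95), Nf2 (r = 0.95), Mapkap1 (r = 0.94), Zfp983 (r = 0.93) and Eif3i (r = 0.93). Those most opposite to it were C130026I21Rik (r = -0.95), Ly6a (r = -0.94), Gmfg (r = -0.93), Evi2a (r = -0.93) and Cysltr1 (r = -0.92). Nfil3, which competes with DBP at D-boxes, ranked 46 from the most alike (r = 0.86), Cry1 ranked 209, and Dbp ranked 643 from the most opposite. The further clock genes were mixed. Arntl2, a paralogue of Arntl, ranked 329 from the most opposite (r = -0.70), ahead of Dbp. Clock ranked 2687 from the most alike (r = 0.48), and the D-box factors Hlf and Tef had r = 0.51 and r = -0.12.

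The genes most like Dbp were Fgl2 (r = 0.87), Wfikkn1 (r = 0.86), Chsy3 (r = 0.86), Npy1r (r = 0.84) and Bace2 (r = 0.83). Those most opposite were Btg3 (r = -0.96), Kctd20 (r = -0.94), Sphk2 (r = -0.93), Polr3a (r = -0.92) and Pcbp1 (r = -0.91). Some other clock genes ranked high here, with Per3, whose window above holds 2 D-boxes, at 10 (r = 0.82) and Tef, a D-box binding relative of DBP, at 34 (r = 0.76). Nr1d2 ranked 43 (r = 0.75), Btrc 81 (r = 0.71) and Nr1d1 203 (r = 0.66). Others did not, with Per1, whose window also holds a D-box, at 1834 (r = 0.38), Per2 at 1874 (r = 0.37) and the D-box factor Hlf at 4607 (r = 0.10).

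A further 23 clock genes were listed, namely paralogues, ROR receptors, D-box factors, kinases, ubiquitin ligases and outputs, of which 21 were tested. By limma 1 was called higher and 0 lower in Lr11-/- scWAT (11 higher and 10 lower in all), where 5.27% of all probes were called. In BAT 0 were called (8 higher and 13 lower), against 0.0187% of all probes. The called gene was Nampt, an E-box target that makes the NAD precursor nicotinamide mononucleotide. It was at 1.37, 1.85 and 2.31 on the WT scWAT arrays, against 2.84, 4.22 and 4.18 in the Lr11-/- group, without overlap (difference 1.91, SE 0.38, limma adjusted p = 0.0356). On the BAT arrays Nampt lay between 3.92 and 4.64, above 4 of the 6 scWAT arrays. Between WT depots 2 of the 21 were called by limma, against 24.8% of all probes. Both were higher in BAT, Nampt by 2.27 (SE 0.38, limma adjusted p = 0.00455) and Hlf, a D-box factor, by 3.30 (SE 0.74, limma adjusted p = 0.0118). Hlf was at -1.63, -2.49 and 0.28 in WT scWAT and at 1.5, 2.13 and 2.41 in WT BAT. Brown fat markers on the scWAT arrays were at 4.89, 1.94 and 8.05 in WT and 8.64, 11.70 and 11.82 in Lr11-/- mice for replicates 1 to 3. Within each genotype Hlf had the same order of arrays (-1.09, 1.12 and 1.42 in Lr11-/- scWAT), while Nampt did not. The part of these markers in the Nampt and Hlf differences was not tested.

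Array series and slide were the known technical splits, and the difference between series was tested. Later minus earlier series, with group in the fit, 0 of the 10 clock genes and 0% of all probes were called by limma, with 0 of the 10 and 3440 of the 32121 probes at an unadjusted p under 0.05. The smallest adjusted p among the 10 genes by limma was 0.664, for Nr1d1 (-0.64, SE 0.44). The median absolute difference between series was 0.13 for the clock genes and 0.22 for all probes.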

How the data were processed

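The authors deposited 1 intensity per spot from Agilent Feature Extraction 10.10, background-subtracted within the array and not normalised between arrays. Groups came from the tissue and genotype labels. Outlier spots (128 to 181 per array) were left out, spots of a probe were averaged after log2, and the log2 of the array's 75th percentile (374 to 632) was subtracted. Probes were tested where a group of 3 arrays all read well above background (32121 of 55681, of which 19181 were named). Symbols came from RefSeq accessions matched to GRCm38.p6 (27235 of 28685 matched). All 12 arrays entered 1 limma fit (R 4.3.3, limma 3.58.1, lmFit and eBayes) with a mean per group, and p-values were adjusted by Benjamini-Hochberg over all tested probes, with calls at 0.05. A gene was read from its brightest tested probe. Relations used exact permutation within groups (Python 3.11.15, scipy 1.17.1). The members, lists and tests were chosen with earlier results of these data known. Genes named as most like Arntl or Dbp are the 5 highest and 5 lowest r. The authors' methods give 3 of each RNA source but do not say whether each was a separate mouse, so p-values measure the spread between these samples only. Alternatives were other normalisations, background correction, no filter, blocks for slide or series, each series alone and each array left out.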

Additional observations from a re-analysis of the deposited data

How the results depend on the processing

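The 40 differences of the 10 genes in the 4 comparisons of groups were recomputed under the alternatives, giving 884 values. Among values from fits with a test, 40 changed sign and 8 passed the threshold that none had passed in the first fit. The earlier series alone, 1 array a group, allowed no test, and its changes of sign are not in that count. They include Clock (-1.35) and Nr1d2 (1.14) in scWAT, Per1 in BAT (-0.16), Clock between WT depots (-0.75) and Arntl between Lr11-/- depots (0.50). No paired analysis was possible because the labels number no replicates (1 to 3 are names given here in accession order) and do not tie scWAT to BAT of the same mouse. The count of called clock genes stayed at 0 under quantile normalization, median scaling, normexp on the median signals (the mean signal was not in the files used), no filter, a slide block, a series block and fits with only the groups compared. With the later array series alone, 1 gene (Cry1) was called in scWAT, where 7259 of all 32121 probes were called, against 1692 in the first fit. Leaving out 1 array at a time, the count ran from 0 to 2 between genotypes in scWAT, from 0 to 1 between WT depots, from 0 to 2 for the average genotype difference and from 0 to 4 for relations with Arntl. Over the same fits, all probes called ran from 3 to 6371 between genotypes in scWAT and from 3276 to 10231 between WT depots. For the average genotype difference that number is not given here. Under median scaling the median difference of all probes was 0.17 in scWAT and 0.20 between WT depots, against 0.04 and 0.07, and the Per1 difference between Lr11-/- depots turned to 0.035. With the later series alone Per3 in scWAT was -0.062, Per1 between WT depots -0.45 and Per1 between Lr11-/- depots 0.31.

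Without the 5 arrays high in muscle genes, an alternative chosen after seeing the data, signs changed for Cry2 in scWAT (0.19), for Arntl (-0.082), Cry1 (-0.037), Nr1d2 (0.33) and Dbp (0.064) in BAT, for Arntl (0.55), Cry2 (0.25) and Dbp (-0.47) between WT depots and for Per1 between Lr11-/- depots (0.31). Replicate 2 was then the only WT BAT array left, so the values in BAT and between WT depots are comparisons with that array. Leaving out 1 array at a time, the genotype difference in scWAT ran from -0.14 to 0.48 for Clock, from -0.17 to 0.80 for Per3, from -1.17 to 0.29 for Cry2, from -0.67 to 0.14 for Nr1d2 and from -0.55 to 0.19 for Dbp, and that in BAT from -0.26 to 0.22 for Nr1d2. Between WT depots it ran from -0.12 to 0.44 for Clock, from -0.24 to 0.93 for Per1, from -1.32 to 0.13 for Cry2, from -0.27 to 0.55 for Nr1d1, from -0.0053 to 0.66 for Nr1d2 and from -0.38 to 0.97 for Dbp. Between Lr11-/- depots it ran from -0.72 to 0.019 for Arntl, from -0.037 to 0.58 for Clock and from -0.31 to 0.14 for Per1. The cause of these changes was not tested. With 3 arrays a group and the wide spread of these genes, differences near 1 on the log2 scale were seldom detectable, and Cry1 was dim.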

Other observations

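Genes of 3 groups that respond to signals other than the clock were also listed, and their levels were read from the same limma fit. Of 12 immediate early genes, which cells switch on within minutes of a stimulus, 11 were lower and 2 were called lower in Lr11-/- scWAT. Their median difference there was -1.19, and 5.27% of all probes were called. The called genes were Fos (at 1.26, 2.74 and 2.52 in WT and -0.24, -2.50 and -0.68 in Lr11-/- scWAT, difference -3.31, SE 0.78, limma adjusted p = 0.0441) and Egr1 (difference -2.73, SE 0.66, limma adjusted p = 0.0450). In BAT 12 of 12 were lower in Lr11-/- mice, with a median of -1.36 and 0 called, and Egr1 lay between 1.40 and 4.34 in WT and between -1.17 and -0.40 in Lr11-/- BAT. Between WT depots 2 of the 12 were called higher in BAT, Dusp1 and Nr4a1, where 24.8% of all probes were called in either direction.

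Of 10 glucocorticoid-responsive genes, 4 were higher and 6 lower in Lr11-/- scWAT, and 10 of 10 were higher in Lr11-/- BAT, with a median of 0.57 and 0 called in either depot. Fkbp5 and Mt2 were called lower in WT BAT than in WT scWAT, by -2.69 (SE 0.48, limma adjusted p = 0.00554) and -2.43 (SE 0.64, limma adjusted p = 0.0213). Of 8 fasting-responsive genes, 6 were higher in Lr11-/- scWAT and 7 in Lr11-/- BAT, with medians of 0.98 and 0.34 and 0 called in either depot, while between WT depots 2 were called higher and 2 lower in BAT. For both lists, the share of all probes called between WT depots was 24.8%.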
